A study of Mus musculus with 6 samples.

Results

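Peroxisomes are single-membrane organelles that shorten very long and branched fatty acids, make the first steps of ether lipids, and destroy the hydrogen peroxide that their oxidases release. Their enzymes are made in the cytosol and brought in by peroxins, the products of the Pex genes, which also insert membrane proteins and divide the organelle. In the kidney peroxisomes are abundant in the proximal tubule, and several of their enzyme genes are classical targets of the nuclear receptor PPAR-alpha. The 40 genes described here are a fixed list of 13 Pex genes and 27 peroxisomal enzymes and membrane proteins, chosen by name, and all 40 were found among the 18849 genes of the deposited expression table. Each had at least 1 FPKM (sequenced fragments per kilobase of gene length, scaled to the library's mapped fragments) in at least 3 of 6 libraries, so all 40 were among the 13390 genes tested.

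The libraries are RNA sequencing of kidney from male C57BL/6 mice, 8 weeks old, after 14 days of unilateral ureteral obstruction (UUO), an operation that blocks urine flow from 1 kidney and leads to fibrosis. In the 3 control libraries, called floxed here, Abl1 (c-Abl, a tyrosine kinase) is flanked by loxP sites, as the design text has it, while their genotype label reads WT. The 3 knockout libraries come from floxed mice that also carry Ksp-Cre, which is active in tubule epithelium and leaves Abl1 intact in other kidney cells, and their genotype label reads c-Abl knockdown. Which parts of the tubule lost Abl1, the proximal tubule among them, cannot be told from whole-kidney values. All 6 kidneys were obstructed, and unobstructed kidneys were not analysed here. Nothing in the labels says that each library came from its own mouse, and the p-values then reflect only how these libraries vary, which may be partly technical.

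Abl1 read 15.93 to 18.16 FPKM in the floxed and 10.46 to 14.45 FPKM in the knockout libraries (limma log2 fold change -0.42, adjusted p = 0.144, exact two-sided permutation p = 0.1, the smallest that 3 against 3 allow). Cdh16, source of the promoter of Ksp-Cre, read 201.33 to 234.95 and 280.81 to 391.45 FPKM (limma adjusted p = 0.118), and is itself a marker of tubule epithelium. Among all genes tested 0.0299% were called higher and 0.0373% lower in the knockout libraries (limma, adjusted p under 0.05). Over all genes tested the median absolute distance from the floxed mean on the log2 scale was 0.40, 0.27 and 0.17 in knockout replicates 1, 2 and 3. The last of these libraries thus stood nearest to the floxed group, and the calls without it are given for each member that then passed. Because whole kidney was measured, fewer cells of a type and less RNA per cell cannot be told apart.

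Most peroxisomal enzyme genes had higher levels in the knockout kidneys, while the Pex genes differed less and the ether lipid genes hardly differed. Of the 40 members, 38 had a log2 fold change above 0, against 34.6% of all genes tested. None of the 40 passed the limma threshold adjusted over all genes. With an unadjusted limma p under 0.05, 19 members were higher and 0 lower, against 8.38% and 16.3% of all genes tested. In 22 members the 3 knockout libraries all lay above the 3 floxed libraries, against 10.0% of all genes tested. Log2 fold changes here are differences of mean log2(FPKM + 1), knockout minus floxed, a scale that understates the change of genes at low levels.

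The median log2 fold change was 0.28 over the 13 Pex genes and 0.68 over the 27 enzymes and membrane proteins, beside -0.12 over all genes tested. The Pex genes spanned log2 fold changes of -0.06 to 0.78 and the enzymes -0.07 to 2.21, so the Pex range lies within that of the enzymes. Higher at an unadjusted limma p under 0.05 were 4 of 13 Pex genes and 15 of 27 enzymes and membrane proteins. The share of all genes tested was 8.38%. The knockout libraries all lay above the floxed ones in 7 Pex genes and 15 enzymes and membrane proteins, against 10.0% of all genes tested. Whether enzymes and Pex genes differ in response was not tested, since genes are not replicates of a condition.

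**Figure D1:**
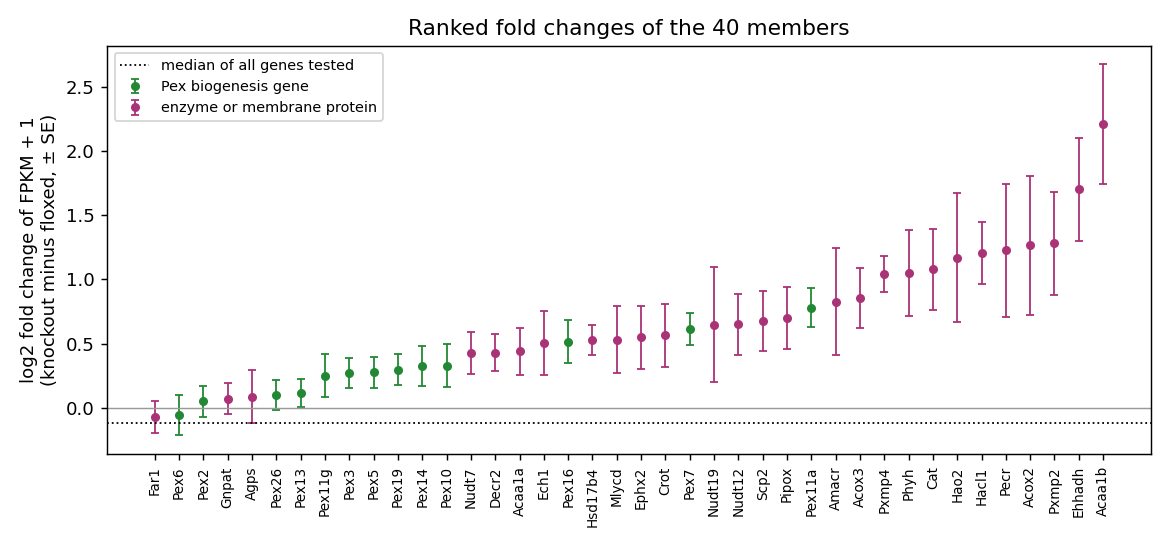
Log2 fold change of FPKM + 1 (knockout minus floxed) for each of the 40 genes, ranked from low to high, with bars of 1 SE from limma over 3 floxed and 3 knockout libraries, Pex genes in green and enzymes or membrane proteins in purple. Acaa1b at 2.21 is at the right end, most Pex genes sit in the left part, and the dotted line is the median of all genes tested, -0.12.

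The knockout libraries differed among themselves. Knockout replicate 1 had 38 of the 40 members above the highest floxed library, replicate 2 had 33 and replicate 3 had 25, against 24.0%, 24.2% and 25.5% of all genes tested. The 27 enzymes and membrane proteins exceeded the floxed mean on the log2 scale by a median of 1.11, 0.81 and 0.19 in knockout replicates 1, 2 and 3, and the Pex genes by a median of 0.43, 0.23 and 0.14. Knockout replicate 3 was the lowest of the knockout libraries for 28 members and the highest for 2, Pex2 and Far1. The matching shares of all genes are not given here, and over all genes tested that library also stood nearest to the floxed mean. Without knockout replicate 3, 24 members passed the limma threshold over all genes as higher, 5 Pex genes and 19 enzymes and membrane proteins, beside 9.02% of all genes tested. The Pex genes were Pex7, Pex10, Pex11a, Pex16 and Pex19, with limma adjusted p from 0.0127 for Pex7 to 0.0460 for Pex10. The 8 beta-oxidation genes passed with limma adjusted p from 0.00278 for Acaa1b to 0.0460 for Ehhadh. The other 11 were Phyh (limma adjusted p = 0.00349), Pxmp2 (0.00367), Cat (0.00559), Pxmp4 (0.00559), Pecr (0.00569), Pipox (0.00806), Nudt12 (0.0117), Mlycd (0.0187), Hacl1 (0.0252), Decr2 (0.0353) and Hao2 (0.0389). That library is left out because it lay toward the floxed group, so the larger count follows in part from the choice. With limma's array weights, which give less weight to libraries far from their group, 14 members passed as higher, all of them among those 24, beside 4.39% of all genes tested. Over the fits with 1 library left out, the members higher at an unadjusted limma p under 0.05 numbered 15, 11 and 14 without floxed replicate 1, 2 or 3, where 7.20%, 5.06% and 5.20% of all genes tested were higher at that p. They numbered 12, 12 and 30 without knockout replicate 1, 2 or 3, where the shares of all genes were 5.79%, 4.94% and 13.4%. With the replicate number as a block they numbered 20, where the share was 7.29%.

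**Figure D2:**
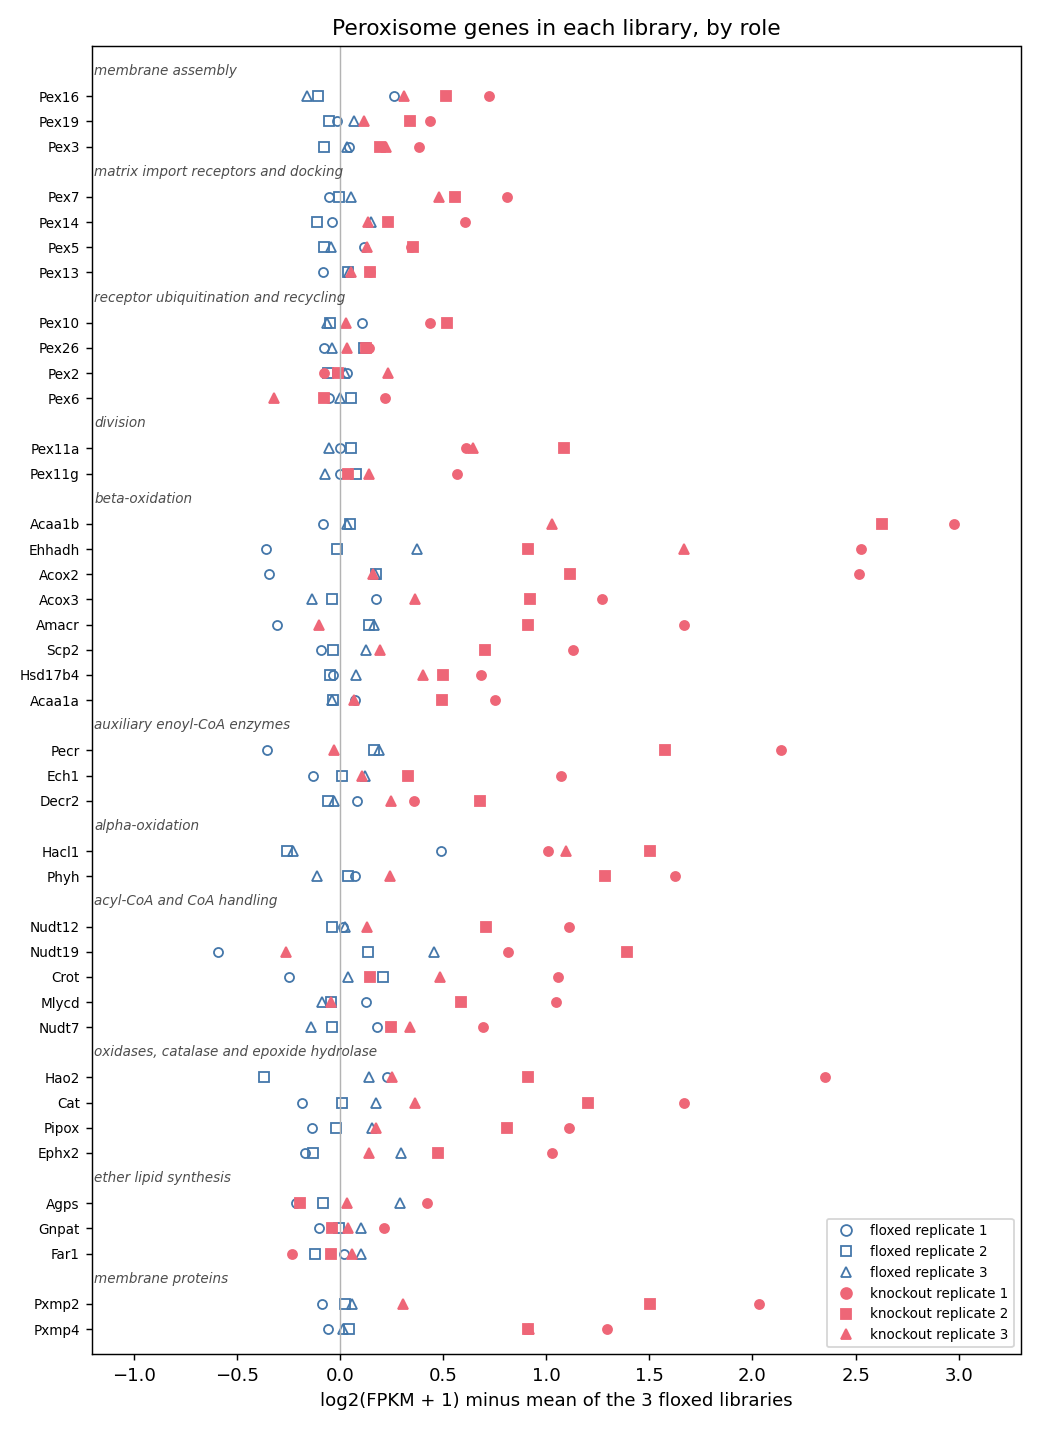
Each of the 40 genes in each of the 6 libraries, as log2(FPKM + 1) minus the mean of the floxed libraries, grouped by role; open blue symbols are floxed and filled red symbols knockout replicates 1 (circle), 2 (square) and 3 (triangle). Red circles and squares lie to the right for beta-oxidation, alpha-oxidation and membrane protein genes, the triangle is the lowest knockout symbol for 28 of the 40 genes, and the ether lipid genes stay within 0.5 of 0 in every library.

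The genes of membrane assembly come first in peroxisome formation. Pex3 anchors the process in the membrane, Pex19 is the chaperone that carries membrane proteins to it, and Pex16 helps to recruit Pex3. Pex16 read 23.91, 18.28 and 17.58 FPKM in the floxed replicates and 33.24, 28.61 and 24.73 FPKM in the knockout replicates, each in the order 1, 2, 3 as throughout (limma log2 fold change 0.52 ± 0.166 SE, adjusted p = 0.133). Pex19 was at 28.27, 27.57 and 29.99 FPKM against 39.06, 36.48 and 31.06 FPKM (limma log2 fold change 0.30 ± 0.123 SE, adjusted p = 0.196). For Pex3 the floxed values were 10.52, 9.56 and 10.42 FPKM and the knockout values 13.55, 11.78 and 12.04 FPKM (limma log2 fold change 0.27 ± 0.116 SE, adjusted p = 0.212). In all 3 genes the groups did not overlap, although knockout replicate 3 of Pex16 stood less than 1 FPKM above floxed replicate 1.

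Import of matrix enzymes uses Pex5, the receptor for the C-terminal targeting signal that most peroxisomal enzymes carry, and Pex7, the receptor for an N-terminal signal found on a few, among them Phyh, Agps and the Acaa1 thiolases. Pex7 read 17.14, 17.78 and 18.53 FPKM in the floxed and 32.03, 26.72 and 25.2 FPKM in the knockout libraries, a 1.57-fold difference of means (limma log2 fold change 0.62 ± 0.126 SE, adjusted p = 0.0658). Pex5 was at 21.71, 18.85 and 19.31 FPKM and at 25.55, 25.74 and 21.92 FPKM (limma log2 fold change 0.28 ± 0.120 SE, adjusted p = 0.213). The groups were separate for both receptors, widely for Pex7 and by a narrow margin for Pex5. Pex13 and Pex14 form the docking site in the membrane. Pex14 had 17.8, 16.89 and 20.42 FPKM in the floxed and 28.4, 21.68 and 20.25 FPKM in the knockout libraries (limma adjusted p = 0.246), with knockout replicate 3 inside the floxed range. Pex13 differed by 0.11 on the log2 scale, from 13.5 ± 0.711 to 14.7 ± 0.566 FPKM (SD, n = 3 each), and its limma adjusted p was 0.519.

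After delivery the receptor is ubiquitinated by a ligase that holds Pex2 and Pex10 and pulled out of the membrane by an ATPase complex that holds Pex6, which Pex26 anchors. None of these 4 genes had groups that did not overlap. Pex10 was the lowest Pex gene by level, with 6.27, 5.52 and 5.46 FPKM in the floxed and 8.11, 8.67 and 5.89 FPKM in the knockout libraries (limma adjusted p = 0.258). Pex26 stood at 9.09, 10.54 and 9.38 FPKM against 10.73, 10.64 and 9.92 FPKM (limma adjusted p = 0.598). Pex2, one of the highest Pex genes, showed 31.14, 29.12 and 30.98 FPKM against 28.78, 30.21 and 35.91 FPKM (limma log2 fold change 0.05, adjusted p = 0.812). The knockout values of Pex2 lay on both sides of the floxed ones. Pex6 had the only negative fold change among the Pex genes, -0.06 on the log2 scale, with 23.34, 25.17 and 24.26 FPKM in the floxed and 28.37, 22.96 and 19.22 FPKM in the knockout libraries (SE 0.154, limma adjusted p = 0.825). That sign turned with median-ratio scaling, to 0.06, and without knockout replicate 3, to 0.07.

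Division of the organelle involves the Pex11 membrane proteins, of which Pex11a is known as the form that PPAR-alpha ligands raise. Pex11a read 15.54, 16.14 and 14.95 FPKM in the floxed and 24.23, 34.06 and 24.84 FPKM in the knockout libraries, 1.78-fold higher in the mean (limma log2 fold change 0.78 ± 0.153 SE, adjusted p = 0.0638). It had the largest fold change and the smallest p of the 13 Pex genes, and unlike most members it stood as high in knockout replicate 3 as in replicate 1. Its relative Pex11g read 8.95, 9.5 and 8.46 FPKM against 13.78, 9.25 and 9.99 FPKM (limma adjusted p = 0.366), and only knockout replicate 1 stood clear of the floxed range by more than 1 FPKM.

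Beta-oxidation in peroxisomes starts with acyl-CoA oxidases (Acox2 and Acox3 for branched chains and bile acid intermediates), goes on with the bifunctional enzymes Ehhadh and Hsd17b4, and ends with the thiolases Acaa1a, Acaa1b and Scp2, while Amacr turns methyl-branched chains into the form the oxidases accept. All 8 genes had a log2 fold change above 0, with a median of 0.84. An unadjusted limma p under 0.05 was reached by 6 of the 8, against 8.38% of all genes tested that were higher. Without knockout replicate 3 all 8 passed the limma threshold over all genes, against 9.02%. That library was left out because it lay toward the floxed group, so the count follows in part from the choice. Without knockout replicate 1 or 2, 0 of the 40 members passed. Acaa1b had the largest fold change of the 40 members. It read 29.43, 32.28 and 32 FPKM in the floxed and 252.75, 197.99 and 64.74 FPKM in the knockout libraries, 5.50-fold higher in the mean (limma log2 fold change 2.21 ± 0.466 SE, adjusted p = 0.0687). Ehhadh read 19.99, 25.65 and 33.88 FPKM against 154.05, 49.7 and 84.69 FPKM, 3.63-fold in the mean (limma log2 fold change 1.70 ± 0.399 SE, adjusted p = 0.0825). The 3 knockout libraries lay above the floxed range for both, and for Ehhadh knockout replicate 2, not replicate 3, was the lowest of them.

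Hsd17b4, the bifunctional enzyme for branched chains, differed less but more evenly, with 61.47, 60.77 and 66.5 FPKM against 101.57, 89.4 and 83.37 FPKM (limma log2 fold change 0.53 ± 0.119 SE, adjusted p = 0.0764). Acox3 went from a floxed mean of 31.9 ± 3.71 to a knockout mean of 60.2 ± 18.6 FPKM (SD, n = 3 each, limma adjusted p = 0.103), and Scp2 from 118 ± 9.41 to 196 ± 62.3 FPKM (limma adjusted p = 0.149). In these 3 genes, too, the groups were separate. Acox2 and Amacr were not: their knockout means were 3.23-fold and 2.0-fold the floxed means, but knockout replicate 3, at 8.18 and 35.03 FPKM, lay inside the floxed ranges of 5.46 to 8.25 and 30.21 to 42.33 FPKM (limma adjusted p = 0.208 and 0.260).

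Acaa1a and Acaa1b are copies of the thiolase gene, both on chromosome 9. Of the 50-base words of the longest coding transcript of Acaa1b, 35.5% also occur in Acaa1a, and 34.0% the other way round. Over all other genes of the table, on either strand, the shares were 46.2% for Acaa1b and 35.1% for Acaa1a. The authors' counting may have split or shared reads between the copies or with further genes, so the values of both are uncertain. For no other member did the words shared with other genes of the table exceed 9.47%, the value of Pex3, which shares them with Adat2 on the opposite strand. Acaa1a read 69.44, 64.24 and 64.03 FPKM in the floxed and 111.51, 93.31 and 69.12 FPKM in the knockout libraries (limma log2 fold change 0.44, adjusted p = 0.198). The level of Acaa1b divided by that of Acaa1a was 0.424, 0.502 and 0.50 in floxed replicates 1, 2 and 3 and 2.27, 2.12 and 0.937 in knockout replicates 1, 2 and 3. Acaa1a was thus the higher copy in every floxed library and Acaa1b in knockout replicates 1 and 2. The pair was singled out after its values were seen, and the ratio was not tested.

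The 120 bases before the start site of each copy are shown because these related copies of 1 enzyme gene had such different fold changes. They are printed 5′ to 3′ on the gene's strand, from RefSeq on GRCm38.p6, with the CCAAT box in capitals where it occurs on either strand (as ATTGG on the opposite one).
Acaa1a (chr9:119341174-119341293, plus strand): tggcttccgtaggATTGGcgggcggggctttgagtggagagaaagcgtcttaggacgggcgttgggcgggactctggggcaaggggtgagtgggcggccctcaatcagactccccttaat
Acaa1b (chr9:119157094-119157213, minus strand): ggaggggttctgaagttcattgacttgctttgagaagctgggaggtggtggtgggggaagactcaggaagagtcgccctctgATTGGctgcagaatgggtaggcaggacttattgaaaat
The windows matched in 50.7% of the columns of a global alignment, gaps counted. Windows of unrelated genes were not aligned, so this share cannot say whether the copies are more alike than those. GC content was 62.5% for Acaa1a and 51.7% for Acaa1b. Each holds 1 CCAAT box, at different places, and 27.2% of genes with a RefSeq promoter entry hold at least 1 in the same window. These are reference letters and carry no measurement of binding.

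A wider search asked whether the promoters of the members share a PPAR-type direct repeat, AGGTCANAGGTCA, on either strand in the 250 bases before the start, with at most 2 mismatches. Of the 33 members with a RefSeq promoter entry 1 held such a match, 3.03%, against 3.37% of all genes of the table with an entry. The match was in Cat, 192 to 204 bases before its start (GRCm38.p6), and is shown with 20 bases on each side and the motif in capitals.
Cat (chr2:103485325-103485377, minus strand): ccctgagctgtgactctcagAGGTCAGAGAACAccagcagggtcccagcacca
A match is a description of letters, and elements further from the start were not searched.

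Enzymes that reduce or move double bonds in fatty acyl-CoA chains stand beside the main cycle. Decr2, a dienoyl-CoA reductase, read 25.27, 22.87 and 23.35 FPKM in the floxed and 30.87, 38.74 and 28.5 FPKM in the knockout libraries (limma log2 fold change 0.43 ± 0.141 SE, adjusted p = 0.136), with no overlap. Pecr, an enoyl-CoA reductase, had 50, 71.89 and 73.2 FPKM against 285.75, 192.95 and 62.87 FPKM (limma log2 fold change 1.23 ± 0.519 SE, adjusted p = 0.203). Ech1, a dienoyl-CoA isomerase also found in mitochondria, had 135.96, 149.8 and 161.91 FPKM against 314.26, 187.36 and 160.33 FPKM (limma adjusted p = 0.258). For Pecr and Ech1 knockout replicates 1 and 2 were above every floxed library and replicate 3 was inside the floxed range.

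Alpha-oxidation removes 1 carbon from phytanic acid, with Phyh as the hydroxylase and Hacl1 as the lyase. Hacl1 read 13.06, 7.38 and 7.55 FPKM in the floxed and 19.16, 27.46 and 20.46 FPKM in the knockout libraries, 2.40-fold higher in the mean (limma log2 fold change 1.20 ± 0.240 SE, adjusted p = 0.0651). Phyh, among the most abundant members, read 116.25, 113.78 and 102.18 FPKM against 343.46, 271.28 and 131.09 FPKM, 2.25-fold (limma log2 fold change 1.05 ± 0.335 SE, adjusted p = 0.130). The groups did not overlap for either gene. Knockout replicate 3 kept the height of the other knockout libraries for Hacl1 and stood close to the floxed ones for Phyh.

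Several members handle the products and the coenzyme A of these reactions. Nudt12, which cleaves NADH, read 7.48, 7.16 and 7.52 FPKM against 17.09, 12.71 and 8.19 FPKM (limma log2 fold change 0.65 ± 0.240 SE, adjusted p = 0.165). Nudt7, a coenzyme A diphosphatase, had 15.32, 13.02 and 12.05 FPKM against 22.33, 16.1 and 17.2 FPKM (limma log2 fold change 0.43 ± 0.161 SE, adjusted p = 0.171). Crot, which links shortened chains to carnitine for export, had 47.07, 64.95 and 57.61 FPKM against 117.83, 62.21 and 78.8 FPKM (limma adjusted p = 0.213). Nudt7 and Nudt12 had separate groups, while knockout replicate 2 of Crot fell within the floxed range. Mlycd, malonyl-CoA decarboxylase, which also works in mitochondria, stood at 18.9 ± 1.56 and 29.0 ± 10.9 FPKM (SD, n = 3 each, limma adjusted p = 0.255). The coenzyme A diphosphatase Nudt19 varied widely within both groups, from 78.65 to 163.64 FPKM in the floxed and from 99.15 to 313.9 FPKM in the knockout libraries (limma adjusted p = 0.387).

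Oxidases of peroxisomes make hydrogen peroxide and catalase (Cat) removes it. Cat read 96.36, 110.6 and 124.08 FPKM in the floxed and 350.56, 254.17 and 141.61 FPKM in the knockout libraries, 2.25-fold in the mean (limma log2 fold change 1.08 ± 0.317 SE, adjusted p = 0.115). Pipox, an oxidase of pipecolic acid and sarcosine, had 92.12, 99.81 and 112.8 FPKM against 220.12, 178.17 and 114.52 FPKM (limma log2 fold change 0.70 ± 0.241 SE, adjusted p = 0.147). Hao2, an oxidase of hydroxy acids, had 73.71, 48.42 and 69.33 FPKM against 324.33, 119.1 and 74.9 FPKM (limma log2 fold change 1.17 ± 0.50 SE, adjusted p = 0.207). All 3 had separate groups, but in knockout replicate 3 Pipox and Hao2 were within 2 FPKM of the highest floxed library. Ephx2, soluble epoxide hydrolase, stood at 79.0 ± 14.9 and 119 ± 38.0 FPKM (SD, n = 3 each, limma adjusted p = 0.223), with overlap.

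Ether lipid synthesis starts in peroxisomes with Gnpat and Agps, and Far1 supplies the fatty alcohol. None of the 3 genes had a log2 fold change beyond 0.09 in either direction. Gnpat read 22.78, 24.45 and 26.4 FPKM in the floxed and 28.62, 23.79 and 25.16 FPKM in the knockout libraries (limma log2 fold change 0.07 ± 0.121 SE, adjusted p = 0.725). Agps had 16.53, 18.23 and 23.91 FPKM against 26.23, 16.75 and 19.8 FPKM (limma log2 fold change 0.09 ± 0.203 SE, adjusted p = 0.804). Far1 had 48.4, 43.73 and 51.19 FPKM against 40.42, 46.26 and 49.7 FPKM (limma log2 fold change -0.07 ± 0.125 SE, adjusted p = 0.730). The groups overlapped in each gene, and the sign of Far1 turned with median-ratio scaling, to 0.05. Without knockout replicate 1 all 3 changed sign, to log2 fold changes of -0.0020 for Gnpat, -0.08 for Agps and 0.0081 for Far1.

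Of the membrane proteins outside the Pex family, Pxmp4 had the smallest p of all 40 members. It read 26.74, 28.77 and 28.21 FPKM in the floxed and 70, 53.45 and 53.5 FPKM in the knockout libraries, 2.11-fold higher in the mean (limma log2 fold change 1.04 ± 0.138 SE, adjusted p = 0.0547). Pxmp2, a pore-forming protein of the peroxisomal membrane, had 10.05, 10.95 and 11.22 FPKM against 47.05, 32.31 and 13.48 FPKM (limma log2 fold change 1.28 ± 0.402 SE, adjusted p = 0.127). Both had separate groups. Pxmp4 was alike in the 3 knockout libraries, whereas Pxmp2 in knockout replicate 3 stood near the floxed values.

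**Figure D3:**
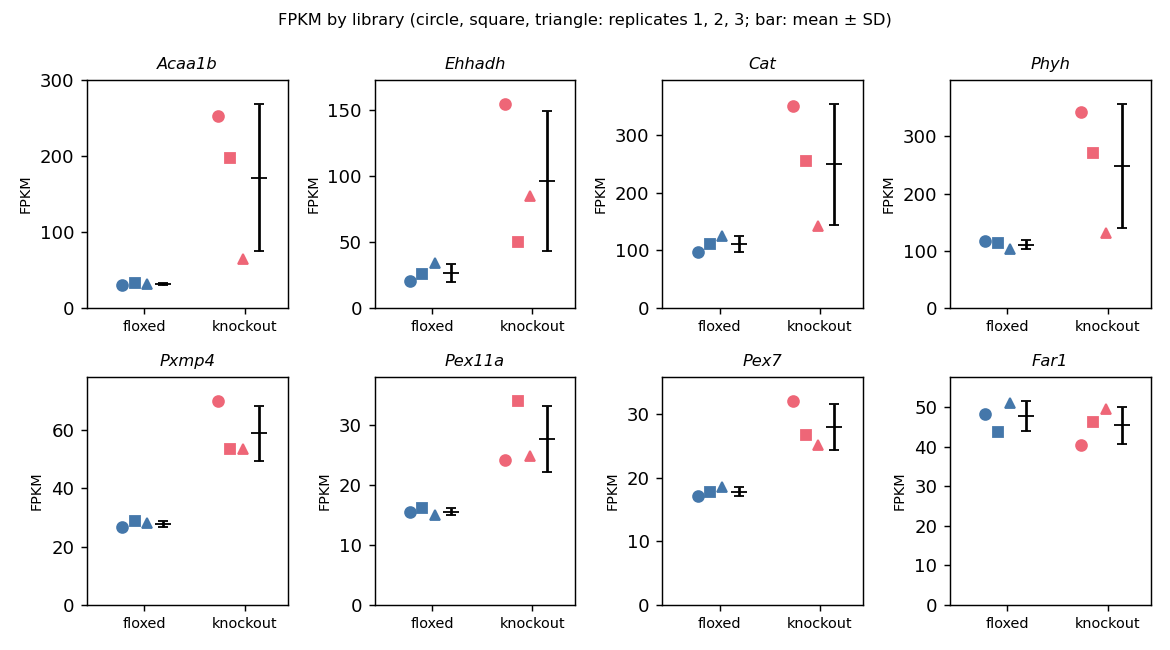
FPKM of 8 members in each library (linear axis from 0; circle, square and triangle for replicates 1, 2 and 3), with the mean and SD of each group as a bar. Acaa1b, Ehhadh, Cat, Phyh, Pxmp4, Pex11a and Pex7 have every knockout library above every floxed one, while the ether lipid gene Far1 overlaps.

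By level, the enzymes were the more abundant set in every library. The enzyme and membrane protein genes had a median of 36.0, 41.6 and 42.3 FPKM in the floxed replicates and 112, 62.2 and 62.9 FPKM in the knockout ones. The Pex genes had medians of 17.1, 16.9 and 17.6 FPKM in the floxed and 25.6, 23.0 and 20.2 FPKM in the knockout libraries. Summed over their genes, enzyme FPKM was 5.87, 6.56 and 7.04 times Pex FPKM in floxed replicates 1, 2 and 3, and 12.6, 9.79 and 6.77 times in knockout replicates 1, 2 and 3. Knockout replicate 3 thus lay within the floxed range of that ratio and knockout replicates 1 and 2 above it.

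Other genes of the organelle, outside the 40, are given by list. Of 29 further peroxisomal enzymes 25 could be tested, and their median log2 fold change was 0.69. Above 0 were 23 of them, against 34.6% of all genes tested. By an unadjusted limma p under 0.05, 16 of them were higher and 0 lower, against 8.38% and 16.3% of all genes tested, and 0 passed over all genes. The acyl-CoA thioesterases Acot3 and Acot12 had the smallest p, with log2 fold changes of 2.22 and 1.41 (limma adjusted p = 0.0547 for each). Of 20 further membrane, division and biogenesis genes 17 could be tested, 11 were above 0 and the median was 0.23, with 5 higher at an unadjusted limma p under 0.05 against the same 8.38%. Abcd3, the main transporter of fatty acyl-CoA in the membrane, had 39.32, 50.01 and 56.43 FPKM against 91.18, 97.17 and 73.58 FPKM (limma log2 fold change 0.84, adjusted p = 0.0687), and Slc25a17, a carrier of coenzyme A, a log2 fold change of 0.42 (limma adjusted p = 0.118). The fission factors Fis1, Mff and Dnm1l, which also divide mitochondria, had log2 fold changes of -0.02, -0.01 and -0.14. Of the 8 genes of peroxisome turnover, 5 were above 0, against the same 34.6%. At an unadjusted limma p under 0.05 stood 1 in each direction, Hspa9 higher (log2 fold change 0.62) and Epas1 lower (-0.59). These counts are near the shares of all genes tested, 8.38% higher and 16.3% lower.

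The receptor Ppara read 3.72, 6.32 and 5.21 FPKM in the floxed and 14.8, 16.4 and 9.78 FPKM in the knockout libraries (limma log2 fold change 1.26, adjusted p = 0.0627), and the groups were separate. Of 11 PPAR receptors and partners 4 were above 0, a share near the 34.6% of all genes tested, and Ppard, the delta receptor, stood lower (limma log2 fold change -0.42, adjusted p = 0.137). Among 20 tested PPAR-alpha targets that act outside peroxisomes, such as the cytosolic thioesterase Acot1 (limma log2 fold change 1.07, adjusted p = 0.0547), 19 were above 0 with a median of 0.81. Cyp4a10 and Cyp4a14, omega-hydroxylases of fatty acids, passed over all genes as higher (limma adjusted p = 0.0446 for each), beside 0.0299% of all genes tested. Their limma adjusted p were 0.00278 and 0.00462 without knockout replicate 3, but 0.0797 and 0.131 without knockout replicate 1. Without floxed replicate 2 or 3, 0 of all genes tested passed. The list of PPAR-alpha targets outside peroxisomes exceeded the floxed mean on the log2 scale by medians of 0.86, 0.85 and 0.77 in knockout replicates 1, 2 and 3. For the enzyme members these medians were 1.11, 0.81 and 0.19.

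Cell type markers also differed between the groups, but not every list had the enzymes' order over knockout replicates 1, 2 and 3. Proximal tubule and thick ascending limb markers had it, the latter with medians of 0.86, 0.71 and 0.39. Fibroblast (-1.93, -1.80 and -0.60) and macrophage markers (-1.45, -1.34 and -0.54) lay below the floxed mean, furthest in replicate 1 and least in replicate 3. Collecting duct markers (1.47, 2.4 and 0.44) and podocyte markers (-0.75, -0.27 and -0.77) had other orders. All 16 proximal tubule markers had a log2 fold change above 0, against 34.6% of all genes tested. In knockout replicates 1, 2 and 3 they exceeded the floxed mean by medians of 2.29, 1.79 and 0.22. Their summed level, most of it Kap, ranged from 5138 to 14120 FPKM in the floxed and from 4499 to 42430 FPKM in the knockout libraries. All 9 fibroblast markers were below 0, with sums of 587 to 754 FPKM in the floxed and 116 to 392 FPKM in the knockout libraries, and all 8 macrophage markers were below 0, with sums of 1524 to 2285 and 592 to 1186 FPKM. Above 0 were also 5 of 5 tested markers of the thick ascending limb, 2 of 3 of the distal tubule and 6 of 6 of the collecting duct, against 1 of 5 of injured tubule. Markers of podocytes (5 of 5) and endothelium (6 of 6) were below 0, as were 8761 of the 13390 genes tested. Of 5 tested lymphocyte markers 2 were above 0. Of the 6 adrenal cortex markers 1 could be tested, and it was above 0. None of the marker genes passed the limma threshold over all genes. At an unadjusted limma p under 0.05 stood 10 proximal tubule markers as higher, against 8.38% of all genes tested. As lower at that p stood 7 fibroblast and 8 macrophage markers, against 16.3% of all genes tested. The part of these markers in the results on peroxisome genes was not tested. The 8 markers of hepatocytes, which are also rich in peroxisomes, summed to 20.2 to 43.7 FPKM in the floxed and 43.0 to 267 FPKM in the knockout libraries. Ttr read 6.17 to 16.59 and 21.56 to 214.93 FPKM, Apoc3 4.67 to 6.2 and 9.35 to 39.57 FPKM, and Serpina1c 0.48 to 0.71 and 0.72 to 6.21 FPKM, each with separate groups. Fgb overlapped, with at most 20.22 FPKM. Albumin (Alb) was at most 2.14 FPKM, Apoa1 at most 0.74 FPKM, and Cyp2c29 and Ahsg at most 0.22 FPKM in any library, with Cyp2c29 and Ahsg listed at 0 in the 3 knockout libraries. The 5 adipocyte markers found summed to at most 0.61 FPKM in any library.

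**Figure D4:**
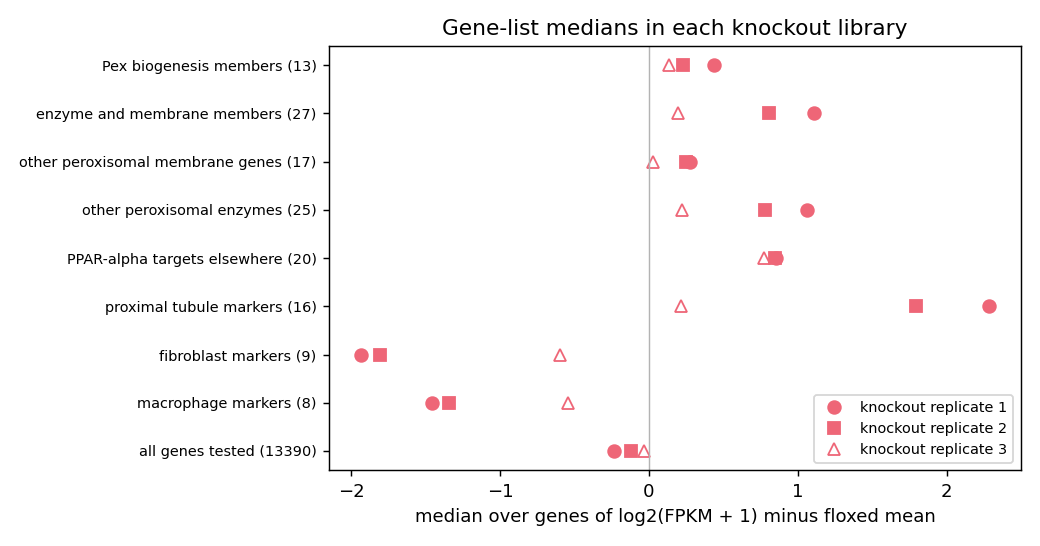
Median over the tested genes of each list (their number in brackets) of log2(FPKM + 1) minus the floxed mean, in knockout replicates 1 (circle), 2 (square) and 3 (open triangle). The enzyme members and the proximal tubule markers are high in replicates 1 and 2 and near 0.2 in replicate 3, while the PPAR-alpha targets outside peroxisomes are near 0.8 in all 3.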

How the data were processed

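Whole-kidney RNA was extracted with TRIzol and sequenced on Illumina libraries, per the labels' protocols, and the authors deposited FPKM values per gene, with 2 decimals, per the file headers. Per the submitters' processing notes the genome was mm9; for aligner, counter, annotation and strand use the entry is "not given in the sources used here". The table has no read totals. The spacing of low values of transcripts of 300 to 2000 nucleotides implied about 16150000 to 18050000 fragments per library, so 1 FPKM in a 2-kb transcript is about 32.3 to 36.1 fragments. At these depths 64.5% to 67.8% of the low values lay within 0.2 of a whole fragment, so the estimate is rough.

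Groups and replicate numbers came from the sample titles. Genes with at least 1 FPKM in at least 3 libraries were kept, converted to log2(FPKM + 1) and compared with limma 3.58.1 in R 4.3.3 (mean-variance trend, a single group term, two-sided, Benjamini-Hochberg over 13390 genes at 0.05). The step was tested on simulated data. Abl1 also had an exact permutation test. Python 3.11.15 was used elsewhere. The members, lists and tests were chosen with earlier results of these data known. Every member is named. Values in all libraries were planned for up to 3 members per role with the smallest p, for members under the filter and for members against the direction of their role. Of other lists up to 4 genes with the smallest p are named, plus Abl1, Cdh16, Ppara and Abcd3 (1 further planned gene is not reported here); Fis1, Mff and Dnm1l were picked after seeing values. Marker lists cover nephron segments, injured tubule, podocytes, endothelium, fibroblasts, macrophages, lymphocytes, hepatocytes, adipocytes and adrenal cortex. Sequences are RefSeq windows on GRCm38.p6, another build than mm9, and shared 50-base words came from GENCODE transcripts. Alternatives were other pseudocounts, filters, scalings and models, a replicate block, and each library left out.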

Additional observations from a re-analysis of the deposited data

How the results depend on the processing

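Over 16 alternatives, 35 of the 40 members kept the sign of their fold change. The exceptions had small changes. Pex2 read -0.0049 on the log2 scale with TPM scaling, and Pex6 and Far1 read 0.059 and 0.048 with median-ratio scaling. With each library left out in turn the log2 fold change ran from -0.043 to 0.11 for Pex2, from -0.20 to 0.071 for Pex6, from -0.14 to 0.0081 for Far1, from -0.0020 to 0.13 for Gnpat and from -0.081 to 0.23 for Agps. The cause was not tested. The count of members past the adjusted limma threshold was 0 in every alternative except array weights (14) and the fit without knockout replicate 3 (24), so it ran from 0 to 24 over the fits that leave out 1 library. At an unadjusted limma p under 0.05 it ran from 11 to 30 over those fits, with 11 without floxed replicate 2, 12 without knockout replicate 1, 12 without knockout replicate 2 and 30 without knockout replicate 3. With the replicate number as a block 0 members passed and 20 stood at an unadjusted p under 0.05. The deviations of same-numbered libraries from their group means correlated at -0.13, -0.07 and 0.03 across genes. Pairs with different numbers ran from -0.12 to 0.13. With 3 libraries per group such values cannot tell whether same-numbered libraries shared more than a number. The enzyme median minus the Pex median, 0.40 on the log2 scale, was 0.18 with quantile scaling and 0.25 to 0.61 with a library left out. Median-ratio scaling moved the median of all genes from -0.12 to -0.01. Every member had at least 5.46 FPKM in every floxed library; the effect of depth was not tested.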
